A study of Mus musculus with 2 samples.

Results

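The synuclein and Parkinson disease genes described here are 9 mouse genes: Sncb, Sncg, Uchl1, Park7, Pink1, Lrrk2, Vps35, Atp13a2 and Fbxo7. They were chosen by name, with earlier results of these data known, and their rows were found in both libraries through their Ensembl gene IDs. All 9 were found among the 43346 Ensembl genes measured. The tissue was midbrain of B6NCrl mouse embryos at embryonic day 15.5, with no mutant allele, transgene or treatment in the labels. Total RNA was sequenced in 2 biological replicates. Each was pooled from many embryos, male and female, 78 of them for replicate 1 and 62 for replicate 2. There was 1 group, so only genes can be set against genes, and 1 pool against the other, and no disease, adult or single-embryo sample was analysed here.

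Mutations in most of these genes cause inherited parkinsonism or a related disorder in people, and their products meet at synaptic vesicles, mitochondria, lysosomes and the ubiquitin system. Beta-synuclein (Sncb) and gamma-synuclein (Sncg) are small soluble proteins of axon terminals that share an amino-terminal repeat region, and gamma-synuclein is prominent in peripheral and sensory neurons. The ventral midbrain is where the dopamine neurons that degenerate in Parkinson disease are born and settle. Whole midbrain holds many other cells, and in such bulk samples fewer cells of a type and less RNA per cell cannot be told apart.

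The coding sequences of the 2 synucleins are shown first because reads are shared between genes where sequences are alike. Below are the first coding exons of the only Sncg transcript and of the leading Sncb transcript, 121 bases each, 5′ to 3′ from the start codon, with capitals at the bases that differ between them (GENCODE M21, mm10, minus strand, chr13:54765563-54765683 for Sncb and chr14:34374460-34374580 for Sncg).

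Sncb-201: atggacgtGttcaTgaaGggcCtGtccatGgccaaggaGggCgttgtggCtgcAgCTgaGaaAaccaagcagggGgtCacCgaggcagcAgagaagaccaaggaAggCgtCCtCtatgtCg

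Sncg-201: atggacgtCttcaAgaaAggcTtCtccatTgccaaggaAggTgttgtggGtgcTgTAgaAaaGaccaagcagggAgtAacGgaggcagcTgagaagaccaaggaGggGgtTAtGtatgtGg

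The pair had 97 of 121 bases in common (80.2%) and 24 that differed, and no identical stretch was longer than 14 bases. The deposited posterior SD of both genes' counts was 0 in both libraries, so no read of either was shared with another gene in the authors' estimate. The whole coding sequences held 133 codons in Sncb and 123 in Sncg.

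For Uchl1, which encodes the neuronal ubiquitin hydrolase UCH-L1, the sequences show where the coding transcript and the more abundant transcript of the gene part. Each line ends with the same 30 bases of exon 3. Capitals in Uchl1-201 are the 45 coding bases of exons 1 and 2, from the start codon, that Uchl1-202 lacks. Capitals in Uchl1-202 are its first 52 bases, at chr5:66676892-66676943 (mm10, plus strand), which are the end of intron 2 of Uchl1-201.

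Uchl1-201: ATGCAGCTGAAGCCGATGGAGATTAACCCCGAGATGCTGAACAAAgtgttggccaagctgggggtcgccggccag

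Uchl1-202: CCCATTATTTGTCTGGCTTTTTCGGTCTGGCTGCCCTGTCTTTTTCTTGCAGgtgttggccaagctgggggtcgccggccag

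Levels are in TPM, the authors' length-scaled share of all transcripts in a library, and errors are SDs over the 2 pools (n = 2). A gene at 1 TPM or more in both libraries is called expressed. All 9 genes were expressed, and all of them had counts far above the 3 counts that a count of 0 allows: the smallest mean was 214 expected counts. Their levels ran from 1239 ± 26.6 TPM for Uchl1 to 1.43 ± 0.233 TPM for Lrrk2. The median of the 9 genes was 89.3 ± 4.91 TPM, against 20.3 ± 0.0141 TPM over the 13401 expressed protein-coding genes. Together they summed to 2018 TPM in replicate 1 and 2042 TPM in replicate 2, and Uchl1 held 60.5% and 61.6% of these sums.

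**Figure D1:**
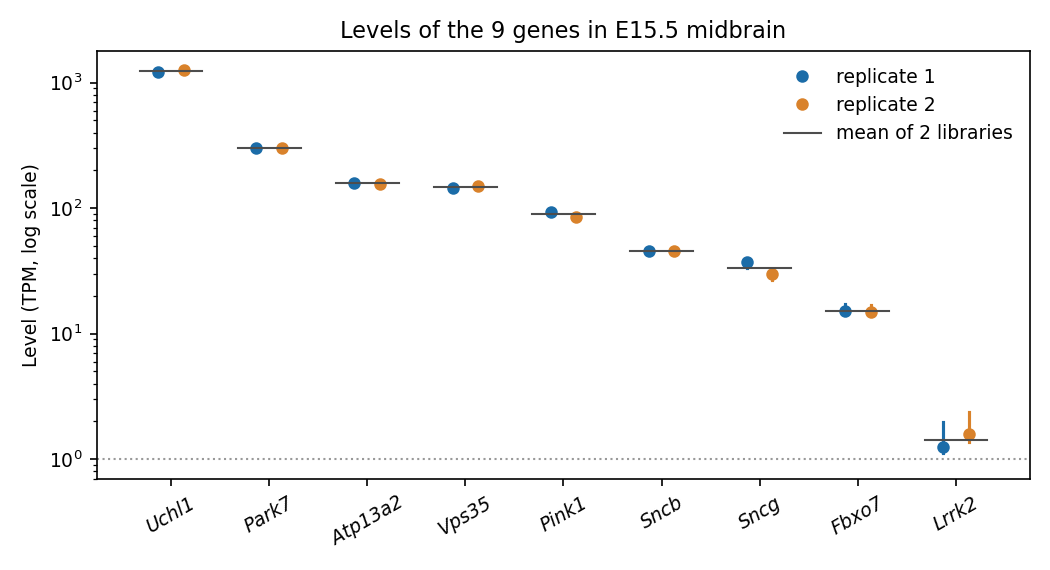
Level of each of the 9 genes in TPM on a log axis, 1 point per library (blue replicate 1, orange replicate 2), with vertical lines for the deposited posterior interval and a horizontal line at the mean of the 2 libraries; the dotted line marks 1 TPM. The order from Uchl1 (1221 and 1258 TPM) to Lrrk2 (1.26 and 1.59 TPM) was the same in both libraries, and a point can lie outside its interval, as for Uchl1, because the interval is that of the posterior estimate.

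The order from highest to lowest was Uchl1, Park7, Atp13a2, Vps35, Pink1, Sncb, Sncg, Fbxo7 and Lrrk2. In all 8 pairs of neighbours both values of the upper gene lay above both values of the lower gene. The closest pair was Atp13a2 and Vps35, with ratios of 1.11 in replicate 1 and 1.04 in replicate 2. Their deposited intervals overlapped in replicate 2 but not in replicate 1, and those of the other 7 pairs overlapped in neither library. The widest step was the last one, in which Fbxo7 exceeded Lrrk2 12.02-fold and 9.40-fold.

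The synucleins were the sixth and seventh genes in this order. Sncb (chromosome 13, 54758860 to 54766595) stood at 46.0 TPM in replicate 1 and 45.9 TPM in replicate 2, from 1292 and 1336 counts. These values were almost the same, and 71.8% of the expressed protein-coding genes were lower. Sncg (chromosome 14, 34370274 to 34374789) stood at 37.1 TPM in replicate 1 and 29.9 TPM in replicate 2, from 653 and 543 counts. Replicate 1 was the higher one, and 63.7% of the expressed protein-coding genes were lower than the mean of 33.5 ± 5.11 TPM. Sncb exceeded Sncg in both libraries, 1.24-fold and 1.54-fold.

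The ubiquitin system held the most abundant of the 9 genes. Uchl1 (chromosome 5, 66676091 to 66687234) was at 1221 and 1258 TPM, from 26018 and 27772 counts, 0.124% of all TPM. It ranked 40 among the expressed protein-coding genes, 99.7% of which were lower. The level of Uchl1 was 26.6 and 27.4 times that of Sncb. Fbxo7, an F-box protein that carries substrates to an SCF ubiquitin ligase and also binds the proteasome inhibitor PI31, was among the low members. Fbxo7 (chromosome 10, 86021972 to 86051873) was at 15.1 TPM in replicate 1 and 14.9 TPM in replicate 2, and 41.6% of the expressed protein-coding genes were lower.

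Park7 and Pink1 serve mitochondria and the response to oxidants. Park7 (chromosome 4, 150897133 to 150914437) encodes DJ-1, a redox-sensitive protein, and was at 300.0 TPM in replicate 1 and 301.1 TPM in replicate 2, from 5594 and 5794 counts. It was the second of the 9 genes, and 96.8% of the expressed protein-coding genes were lower. Pink1 (chromosome 4, 138313409 to 138326307) encodes the kinase that marks damaged mitochondria for removal, and was at 92.8 and 85.8 TPM, from 4834 and 4635 counts. Replicate 1 was again the higher one, and 85.7% of the expressed protein-coding genes were lower.

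Atp13a2 and Vps35 act in the endosomal and lysosomal system. Atp13a2 (chromosome 4, 140986873 to 141007330), a lysosomal P5-type ATPase that exports polyamines, was at 160.2 and 155.3 TPM, from 11979 and 12376 counts. Vps35 (chromosome 8, 85260392 to 85299802), the core subunit of the retromer that returns cargo from endosomes, was at 144.6 and 149.5 TPM, from 10406 and 11104 counts. Their means of 158 ± 3.43 and 147 ± 3.44 TPM placed 92.8% and 92.2% of the expressed protein-coding genes below them. Lrrk2 (chromosome 15, 91673175 to 91816120), a large kinase that phosphorylates Rab GTPases on these membranes, was by contrast at 1.26 and 1.59 TPM, from 198 and 230 counts. It passed the 1 TPM threshold narrowly, and 2.27% of the expressed protein-coding genes were lower. The level of Uchl1 exceeded that of Lrrk2 969-fold in replicate 1 and 791-fold in replicate 2.

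The pools were compared gene by gene with a two-sided exact binomial test on rounded expected counts. To be called, a gene needed an adjusted p (Benjamini-Hochberg) below 0.05 together with a difference of at least 2-fold. Of the 18269 genes tested, 298 (1.63%) were called. Among the 13398 expressed protein-coding genes tested, 22 were called higher in replicate 1 and 10 in replicate 2. None of the 9 genes was called, and the largest difference in their scaled counts was 0.31 on the log2 scale. With the adjusted p alone and no fold limit, 3 of the 9 genes passed, against 19.3% of all tested genes. These were Sncg and Pink1, higher in replicate 1 under every scaling tried, and Uchl1, higher in replicate 2 except when scaled by the spike-ins, which turned its log2 difference to -0.04. With no fold limit, DESeq2's size factors gave 4 of the 9 genes against 19.6% of all tested genes, with Vps35 added (adjusted p = 0.027 against 0.0768, exact binomial test). Spike-in scaling gave 5 against 30.8%, with Park7 and Atp13a2 added. At an unadjusted p under 0.05 there were 4 of 9, Vps35 included, against 30.5% of all tested genes. Such p-values compare these libraries and not conditions, and each side is 1 pool.

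In scaled counts Sncg showed the widest difference of the 9 genes. In TPM the pools differed slightly more for Lrrk2, with an SD of 16.4% of the mean against 15.3% for Sncg. The scaled counts of Sncg were 1.24-fold higher in replicate 1, with a 95% counting interval of 1.11 to 1.39 and an adjusted p of 0.0022 in the exact binomial test. Pink1 was 1.08-fold higher in replicate 1 (1.03 to 1.12, adjusted p = 0.0032, exact binomial test). Uchl1 was 1.03-fold higher in replicate 2, with an adjusted p of 0.0017 in that exact test. When the spread between the libraries was added through a common dispersion (edgeR's exact test), 0 of the 9 genes had an adjusted p under 0.05, against 1.30% of all tested genes. The adjusted p was then 0.69 for Sncg and 1 for Pink1 and Uchl1. That dispersion was estimated from the same 2 libraries with every difference between them counted as spread, so it is no independent measure of the spread among pools. The log2 differences of Sncb, Park7 and Atp13a2 all rounded to 0.00. The Lrrk2 difference of 0.17 had a counting interval from -0.11 to 0.45, so a difference of this size was not detectable at 198 and 230 counts.

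**Figure D2:**
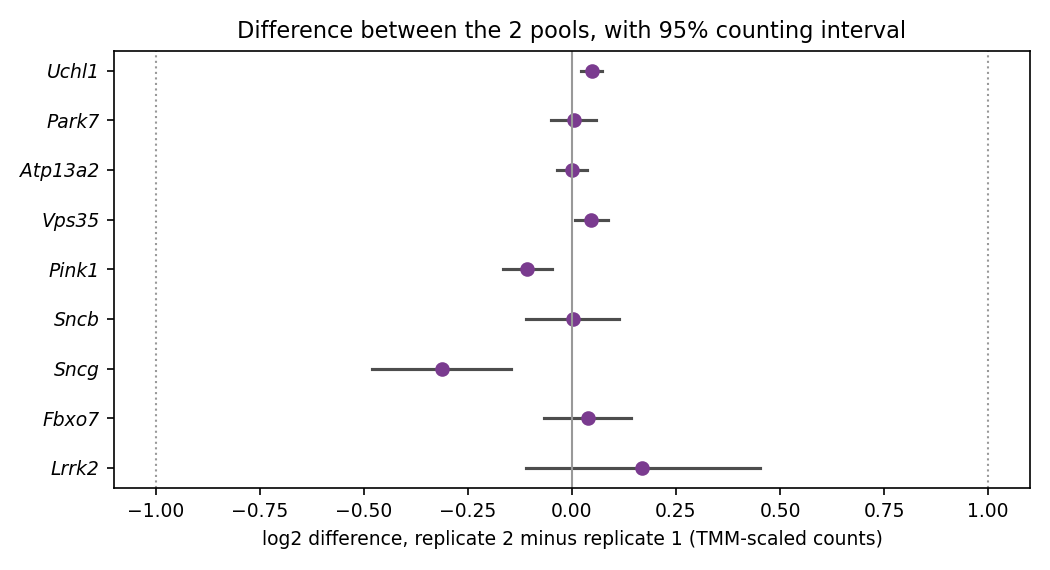
Difference between the pools for each gene as log2 of replicate 2 over replicate 1 in TMM-scaled expected counts, with 95% counting intervals (counting error only); dotted lines mark a 2-fold difference. All 9 points lie inside the dotted lines, and Sncg lies farthest from 0, at -0.31.

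Genes of peripheral neurons also differed between the pools in the direction of Sncg. The 7 listed markers of sensory and peripheral neurons summed to 104.8 TPM in replicate 1 and 91.7 TPM in replicate 2, and 6 of 7 were higher in replicate 1, 4 of them at an adjusted p under 0.05 (exact binomial test). Among them, peripherin (Prph), an intermediate filament of peripheral neurons, was at 7.98 and 3.97 TPM, and Isl1 was at 27.9 and 25.0 TPM, with a log2 difference of -0.43 in scaled counts. The 4 noradrenergic markers summed to 7.49 and 1.98 TPM. Among these, Dbh, the enzyme that makes noradrenaline, was called at 2.95 and 0.52 TPM. Slc6a2, the noradrenaline transporter, was called at 2.85 and 0.72 TPM. Over all 18269 tested genes, 9281 were higher in replicate 1, 1846 of them at the adjusted p alone. Of all tested genes, 164 were called higher in replicate 1. The part of peripheral and noradrenergic neurons in the Sncg difference was not tested.

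Marker sums of other tissues and cell types are given beside these values. The 4 liver markers summed to 21.7 and 3.82 TPM, with 3 called higher in replicate 1, and the 4 skin markers to 14.4 and 25.5 TPM, with Krt5 and Krt14 called higher in replicate 2. Erythroid genes summed to 14767 and 11522 TPM, microglia and macrophage genes to 153.9 and 123.1, endothelial genes to 182.1 and 156.7, and meningeal and fibroblast genes to 393.7 and 345.6. None of these 4 lists held a called gene. At the adjusted p alone, 5 of 5 erythroid, 5 of 8 microglial, 1 of 6 endothelial and 4 of 5 meningeal genes were higher in replicate 1 (exact binomial test). Over all 18269 tested genes, 1846 were higher in replicate 1 at the adjusted p alone. Called genes numbered 164 higher in replicate 1 and 134 higher in replicate 2. Radial glia and progenitor markers summed to 1611 and 1525 TPM and were higher in replicate 1 in 7 of 7 cases. The 6 midbrain identity genes summed to 164.3 and 147.9 TPM. Of these, Meis2, Pax3, En1 and En2 were higher in replicate 1 at the adjusted p alone, and their list had a median log2 difference of -0.30. Otx2 and Pax7, the rest of that list, had log2 differences of 0.02 and 0.08. The part of all these lists in the differences of Sncg, Pink1 and Uchl1 was not tested.

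The labelled tissue had its defining genes. All 12 listed dopaminergic markers were expressed. Their median was 9.95 ± 0.460 TPM, with tyrosine hydroxylase (Th) at 28.2 and 28.9 TPM, and none was called. In scaled counts 8 of the 12 were higher in replicate 2 and 4 in replicate 1, with a median log2 difference of 0.10. The log2 difference was 0.42 for Lmx1a, 0.35 for Slc18a2 and 0.28 for Slc6a3, and -0.44 for En1. Of the 6 midbrain identity genes 5 were expressed, and the median of the 6 was 9.75 ± 1.88 TPM. The 8 general neuronal genes had a median of 181 ± 13.7 TPM and the 9 synapse genes 127 ± 1.34 TPM, all expressed. Of the neuronal genes 5 were higher in replicate 2 and 3 in replicate 1, with a median log2 difference of 0.06. Of the synapse genes 4 were higher in replicate 2 and 5 in replicate 1. Among 6 oculomotor and cholinergic markers 3 were expressed, and Chat, listed at 0.16 and 0.44 TPM, was called higher in replicate 2. Sncb at 45.9 TPM thus lay above the median of the dopaminergic markers and below that of the synapse genes.

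Transcripts were compared by the share of a gene's TPM that the authors' estimate gave to each. The 9 genes had 44 annotated transcripts, and 15 of these took at least 5% of their gene in both libraries. Vps35 and Sncg had 1 transcript each. In 1 of the 7 genes with more than 1 transcript, Uchl1, the leading transcript was annotated as a retained intron. Over the expressed protein-coding genes with more than 1 transcript, this was so for 344 of 9664 (3.56%).

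**Figure D3:**
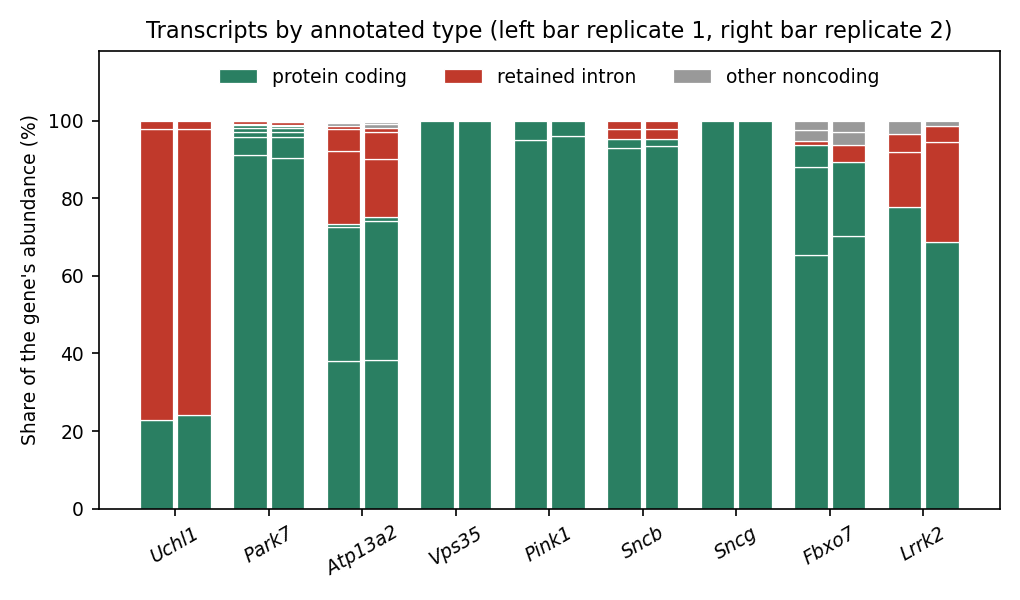
Share of each gene's TPM by annotated transcript type, 1 stacked bar per library, with white lines between transcripts. Retained-intron transcripts take 77.1% and 75.8% of Uchl1 and 25.3% and 23.0% of Atp13a2, and none of Sncg, Vps35 or Pink1.

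Uchl1-202, the retained-intron model of 979 nt, took 74.9% of the gene in replicate 1 and 73.7% in replicate 2. The coding transcript Uchl1-201, of 1167 nt, took 22.9% and 24.2%. In TPM, Uchl1-202 was at 914 and 927 and Uchl1-201 at 280 and 305. The libraries thus gave nearly the same split. All Uchl1 transcripts together were 4.07 and 4.18 times the level of Park7, whereas the coding transcript alone (292 ± 17.7 TPM) overlapped the Park7 values. The estimate gave 18796 and 19669 reads to Uchl1-202, with a posterior SD of 161 and 174 reads. The transcripts share 928 bases and are told apart by the 52 intronic bases printed above and by 249 bases of Uchl1-201. Exon 1, at the 5′ end, makes up 232 of these 249 bases. The posterior SD covers the assignment of reads and not uneven read coverage along the gene. Such coverage was not tested, so the split is an estimate and not a direct measure of each transcript. An antisense gene, Uchl1os, overlaps 408 bases of the annotated span of Uchl1, but held only 12 and 21 counts.

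Atp13a2 had 4 transcripts at 5% or more of the gene in both libraries, the most among the 9 genes. Atp13a2-203 took 38.1% and 35.9%, and Atp13a2-201 took 34.4% and 38.3%. The order of these 2 coding transcripts differed between the libraries, and posterior SDs of 301 to 323 reads on 4967 to 5535 reads accompanied them. They differ by 74 bases near the 3′ end that are exon in Atp13a2-201 and intron in Atp13a2-203, a length that leaves a remainder of 2 when divided by 3. Their annotated coding sequences end at different bases and hold 1169 codons in Atp13a2-201 and 1115 in Atp13a2-203. The retained-intron models came next, Atp13a2-205 with 18.9% and 15.0% and Atp13a2-206 with 5.71% and 6.72%. In reads their order was the reverse, with 550 and 438 for Atp13a2-205 and 890 and 1048 for Atp13a2-206. The larger share of Atp13a2-205 rested on its short model of 877 nt, which shares 702 bases with Atp13a2-201. Atp13a2-205 keeps an intron of 175 bases, and Atp13a2-206 keeps 3 introns of 337 bases in all. The coding transcripts together were at 117.4 and 116.8 TPM.

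**Figure D4:**
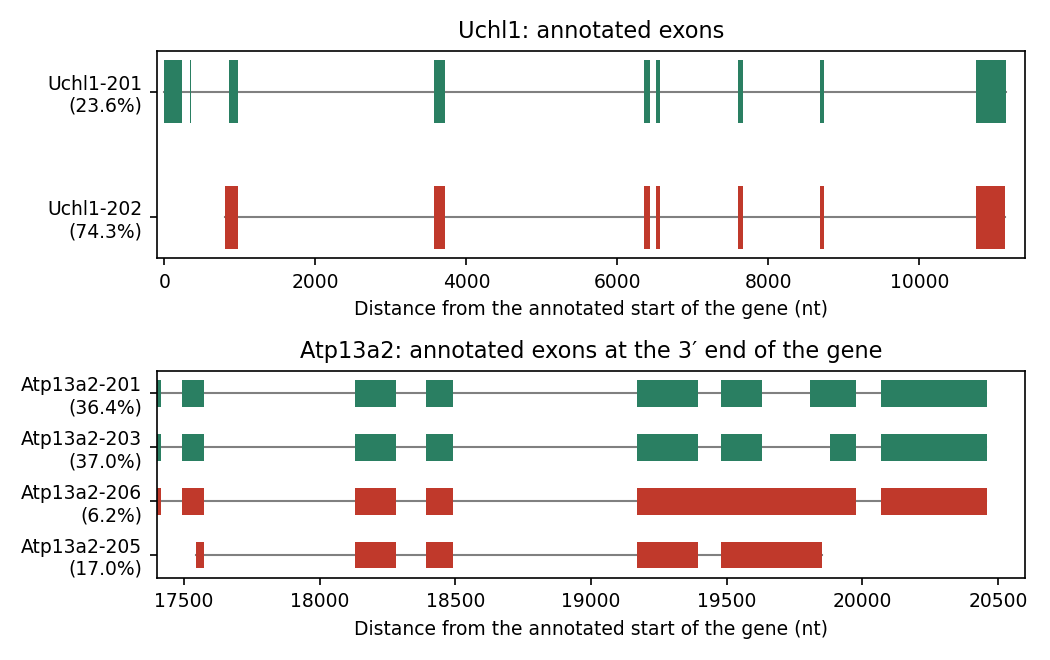
Annotated exons (boxes) of the main Uchl1 transcripts and of the 3′ end of the main Atp13a2 transcripts, by distance from the gene's annotated start in nt; green is protein coding, red is retained intron, and the mean share of the gene is under each name. Uchl1-202 starts inside an intron of Uchl1-201, and Atp13a2-205 and Atp13a2-206 run through introns that the coding models splice out.

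In the other genes a coding transcript led in both libraries. Pink1-201 took 95.1% and 96.1%, Sncb-201 took 93.0% and 93.6%, and Park7-201 took 91.1% and 90.3%. Fbxo7-204 took 65.3% and 70.1% of Fbxo7, and Fbxo7-202 took 22.7% and 19.3%. Fbxo7-202 starts in another first exon, 225 nt downstream, and lacks 243 coding bases of Fbxo7-204. Lrrk2-201 took 77.7% and 68.6% of Lrrk2. The retained-intron model Lrrk2-206 was given 14.1% and 25.8%, which rested on 2.95 and 7.04 reads over a model of 812 nt. The mean length behind the Lrrk2 TPM therefore moved from 6845 to 6095 nt between the libraries, and the ratio of its counts was 1.12 after scaling.

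Annotated neighbours overlap some of these genes. Orc6 lies on the other strand over 171 bases of the annotated span of Vps35 and stood at 43.2 and 39.2 TPM. The antisense gene A230060F14Rik overlaps 358 bases of Fbxo7 and stood at 2.07 and 3.36 TPM. Whether read strand was used in counting is not given in the sources used here. The deposited posterior SD of the count was 0 for Vps35, up to 0.14 reads for Uchl1 and up to 2.44 reads for Fbxo7, so the authors' estimate placed few or no reads in doubt between these genes and others.

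The partners of the 9 genes were described by 8 lists holding 109 genes. All 109 were expressed. Their median was 57.2 ± 1.70 TPM, and none was called between the pools, against 1.63% of all tested genes. Calls were rarer among the 13398 expressed protein-coding genes tested, with 22 higher in replicate 1 and 10 in replicate 2. With the adjusted p alone (exact binomial test), 19 were higher in replicate 1 and 15 in replicate 2. Over all 18269 tested genes these counts were 1846 and 1678, or 19.3% in either direction. The median log2 difference of the 109 genes was -0.01, that of the 9 genes 0.00 and that of all tested genes -0.00.

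The 12 retromer and sorting nexin genes had a median of 52.2 ± 1.41 TPM, and 2 were past the adjusted p alone, both higher in replicate 2. Snx3 (237.6 TPM), Vps29 (223.2 TPM) and Snx6 (92.5 TPM) were the highest and Washc5 (25.7 TPM) the lowest of the list. Of the other retromer core subunits, Vps26a was at 36.2 and 37.8 TPM and Vps26b at 40.3 and 41.4 TPM. Vps35 itself lay between Vps29 and the Vps26 genes in both libraries.

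Mitophagy and mitochondrial dynamics was the longest list, with 23 genes at a median of 62.6 ± 0.933 TPM. Past the adjusted p alone, 3 were higher in replicate 1 and 4 in replicate 2. Chchd2 (569.5 TPM), the mitophagy receptor Bnip3l (390.6 TPM) and the autophagy adaptor Sqstm1 (342.8 TPM) led it. The autophagy receptor Optn (14.1 TPM) was the lowest. Pink1 at 89.3 TPM lay above the median of this list.

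The 14 redox genes linked to DJ-1 had a median of 61.4 ± 0.0742 TPM, and past the adjusted p alone 3 were higher in replicate 1 and 1 in replicate 2. The peroxiredoxin Prdx2 (1067 TPM) and the superoxide dismutase Sod1 (691 TPM) led, and Prdx1 was at 302.0 TPM, next to Park7 at 300.5 TPM. Nqo1, a quinone reductase, was the lowest at 3.94 TPM.

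Among 19 relatives, substrates and regulators of LRRK2, the median was 68.6 ± 0.594 TPM, and 2 were higher in replicate 1 and 3 in replicate 2 at the adjusted p alone. The 14-3-3 genes Ywhaq (1099 TPM) and Ywhaz (1017 TPM) and the vesicle GTPase Rab3a (392.6 TPM) led. The nearest relative, Lrrk1, was the lowest of the list at 3.32 and 3.02 TPM. Lrrk2 was thus below all 19 of these genes in both libraries. Of the Rab GTPases that LRRK2 phosphorylates, Rab10 was at 118.9 and 120.7 TPM and Rab29 at 6.17 and 5.73 TPM.

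The 7 ubiquitin hydrolases and ubiquitin genes had a median of 385 ± 22.1 TPM, the highest of the 8 lists, and 3 were higher in replicate 1 and 1 in replicate 2 at the adjusted p alone. The ubiquitin gene Ubb (3833 TPM) was the highest. Uchl3, the closest paralog of Uchl1, was at 197.3 and 202.2 TPM, and Uchl5 was the lowest at 56.3 and 50.8 TPM. Uchl1 exceeded both hydrolases in both libraries, and its coding transcript alone did so too. The 6 SCF partners and the proteasome inhibitor gene had a median of 173 ± 3.10 TPM, and none was past the adjusted p. Skp1a (751 TPM), the adaptor that F-box proteins bind, Nedd8 (376.6 TPM) and Rbx1 (247.4 TPM) led, and Cand1 (36.8 TPM) was the lowest. Fbxo7 lay below all 6.

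The 16 genes of P5 ATPases and lysosomes had a median of 37.4 ± 2.90 TPM, and at the adjusted p alone 6 were higher in replicate 1 and 1 in replicate 2. The cathepsin Ctsd (227 TPM), Lamp1 (219 TPM) and Ctsb (123 TPM) led. Atp13a2 stood above the other P5 ATPases in both libraries. Atp13a1 was at 48.6 and 48.7 TPM, Atp13a3 at 7.02 and 6.60 TPM, Atp13a5 at 3.01 and 2.55 TPM, and Atp13a4, the lowest of the list, at 1.44 and 1.23 TPM. The 12 other genes named for familial parkinsonism or endocytosis had a median of 38.1 ± 1.01 TPM, with 2 higher in replicate 1 and 3 in replicate 2 at the adjusted p alone. Eif4g1 (117.7 TPM), the endophilin Sh3gl2 (70.3 TPM) and Gigyf2 (56.2 TPM) led, and Vps13c (2.51 TPM) was the lowest.

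**Figure D5:**
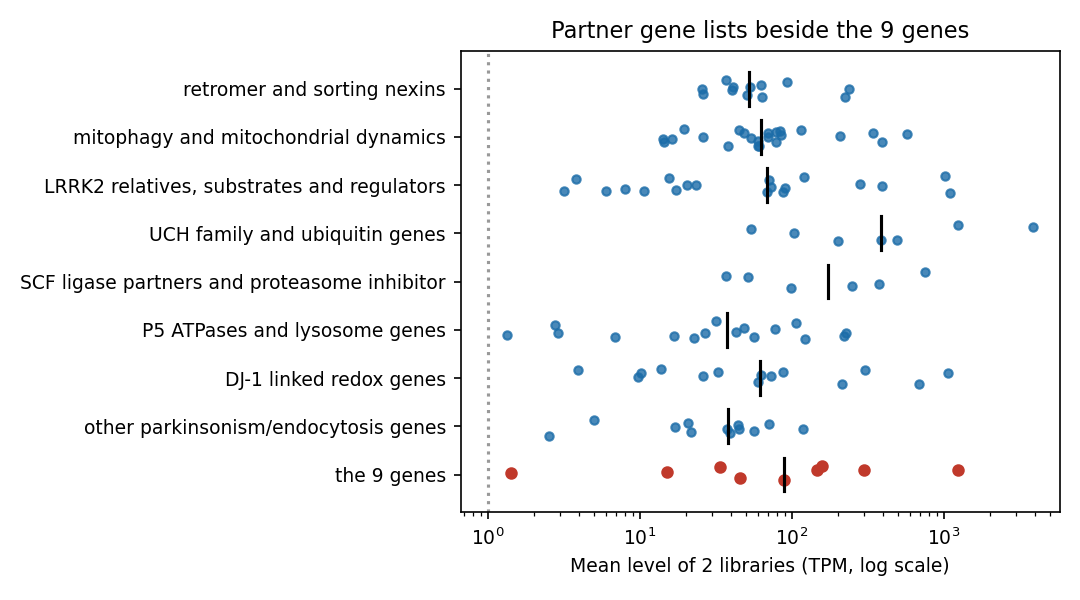
Mean level of each partner gene (blue) and of the 9 genes (red) in TPM on a log axis, 1 row per list, with a black bar at the mean of the 2 library medians; points are spread vertically for legibility and the dotted line marks 1 TPM. The ubiquitin list has the highest median (385 TPM), and Lrrk2 at 1.43 TPM lies left of every LRRK2-related gene.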

How the data were processed

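Total RNA longer than 200 nt was sequenced from 2 pools of embryonic midbrain (10 ng per library, spike-ins added, per the labels). Per the file headers, the authors deposited expected counts, TPM, FPKM and the percent of a gene's TPM in each transcript. Posterior means, posterior SDs and interval bounds were deposited beside them and were used as scores whose interval level the headers do not give. The authors' notes name mm10 and GENCODE M4. The aligner, the counting tool and the strand setting were each not given in the sources used here. Effective length was 99 nt below length in 41126 of 41128 genes (within 0.02 nt), so short genes have unstable TPM.

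The members and the gene lists were chosen with earlier results of these data known. Names, transcript types, coordinates and sequences came from GENCODE M21 on mm10, by ID without version. Lengths there can differ slightly from the deposited ones (1177 against 1167 nt for Uchl1-201). Libraries held 38966386 and 40419493 expected counts, of which spike-ins took 2.30% and 2.42% and were left out of library sizes. Rows with only a number as ID (5.5e-05% and 3.0e-05%) were left out too. Expected counts were rounded and tested with an exact binomial test (scipy 1.17.1) at TMM library sizes (edgeR 4.0.16, R 4.3.3) over genes with a mean of at least 10 counts. Log2 ratios had 0.5 added to each count. With 2 libraries an exact sign-flip test cannot go below p = 0.5, so levels have no p. The labels call the libraries biological replicates but name the same donor record for both, and intervals cover counting error only. Named were all 9 members, transcripts with at least 5% of their gene in both libraries, and the highest 3, the lowest and any called gene of each pathway list; other genes were named after their values were seen. Some genes and a sequence that this rule would name are not reported here. The test was checked on simulated data.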

Additional observations from a re-analysis of the deposited data

How the results depend on the processing

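None of the 9 genes passed the test under DESeq2 1.42.0 size factors, total counts, spike-in scaling, no count filter, posterior mean counts or edgeR's exact test, and 3 did without the fold limit. Over all genes, 298 passed, 3524 without the fold limit and 158 with edgeR's exact test; without a fold limit edgeR's exact test, chosen after seeing the data, passed 237 genes and 0 of the 9. Other settings without a fold limit, also added after seeing the data, passed 3 to 5 of the 9. Scaling by the spike-ins moved the median log2 difference of all tested genes from -0.00 to -0.09. It turned the log2 difference of Sncb to -0.0832, Uchl1 to -0.0374, Park7 to -0.0808, Vps35 to -0.0378, Atp13a2 to -0.0845 and Fbxo7 to -0.0467. Total counts turned Sncb to -0.0026, Park7 to -2.5e-04 and Atp13a2 to -0.0039. The other 27 recomputed differences kept their sign. Adjusted p ranged over these settings from 2.2e-05 to 0.69 for Sncg. All 9 genes were expressed at 0.5 TPM, or with either library left out; 8 were at 5 TPM. The median log2 level (TPM + 1) of the 9 genes was 6.495 over both libraries, 6.55 in replicate 1 alone and 6.44 in replicate 2 alone. Posterior means moved the Lrrk2 level to 1.69 TPM and the share of Lrrk2-201 to 59.3%. No paired analysis was possible because each pool stands alone, and leaving out a library leaves no comparison between pools.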
